A study of Homo sapiens with 4 samples.

Results

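The 48 genes described here encode the Polycomb repressive complexes, the enzymes that methylate histone lysines, their partner subunits and a few histone demethylases. They were taken from the deposited expression table by gene name, and all 48 were found among its 60671 rows. For description they were placed in 8 groups by complex or by the lysine concerned. The table holds poly(A)-selected RNA-seq values for 4 libraries of H9, a human embryonic stem cell line grown without feeder cells. The 2 control libraries are labelled only as control H9. The study used both unedited H9 cells and mock cells with an empty CRISPR vector as controls and names the mock cells for its RNA-seq, but the labels do not say which these are. The 2 other libraries, called KO+OE here, come from cells in which the gene for CFIm25 (NUDT21, a subunit of an mRNA 3′ processing factor) was edited with CRISPR/Cas9 and a 3Flag-tagged CFIm25 was put back. Every KO+OE library therefore carries both the edited gene and the lentiviral transgene, which is driven by an EF1 promoter. The labels call the editing a knockout in sample titles and a knockdown in the series title. The study describes knockdown clones with strongly reduced CFIm25 protein that also carry a small N-terminal deletion, and reports the rescue of 1 mutant clone. The mutant without re-expression was not analysed here. No label says that replicates came from separate cultures, so p-values measure only the spread between these libraries, which may be technical.

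Polycomb repressive complex 2 (PRC2) places methyl groups on lysine 27 of histone H3, and Polycomb repressive complex 1 (PRC1) ubiquitinates histone H2A and compacts chromatin. In embryonic stem cells these complexes sit at CpG-rich promoters of developmental regulators and keep them silent while the cell stays pluripotent. The trithorax-related methyltransferases write the opposing H3K4 mark, and other enzymes write marks on H3K9, H3K36 and H3K79 that accompany heterochromatin or transcription.

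Levels are in TPM, a unit that corrects for transcript length and for library size. Where 4 values follow each other below, their order is control 1, control 2, KO+OE 1 and KO+OE 2. NUDT21 itself stood at 161, 152, 162 and 157 TPM. Its log2 fold change was 0.03 (95% interval -0.09 to 0.14, limma, adjusted p = 0.980). The table does not separate the edited gene from the transgene, so this value does not check the editing. The 8 pluripotency markers examined were all expressed, with POU5F1 at 2164 to 2212 TPM, LIN28A at 517 to 528 TPM, SOX2 at 18.2 to 19.4 TPM and NANOG at 15.9 to 19.9 TPM. Of 16 markers of germ layers and fibroblasts, 5 averaged 1 TPM or more (OTX1, TBX6, GATA6, COL1A2 and TWIST2), while SOX17 and LUM were listed at 0 throughout. The libraries are bulk RNA, so fewer cells of a type and less RNA per cell cannot be told apart. Sequencing depth is unknown because TPM keeps no read counts, and no counting error could be given.

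The members spanned more than 3 orders of magnitude in level. The highest was PHC1 with a mean of 254 TPM over the 4 libraries, and the lowest was BMI1 with 0.06 TPM. Their median of 11.2 TPM lay above the 7.77 TPM of the 12319 genes that entered the test, those averaging 1 TPM or more. PHC1, EHMT2 and KDM1A were the 3 members at 50 TPM or more. Another 11 lay between 20 and 50 TPM, 15 between 5 and 20 TPM, and 11 between 1 and 5 TPM. The 8 members with a mean under 1 TPM were SUZ12, BMI1, RYBP, CBX8, PHC3, KMT2C, SUV39H2 and SETD2. These 8 were left out of the fit across genes, and 40 of the 48 members were tested.

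**Figure D1:**
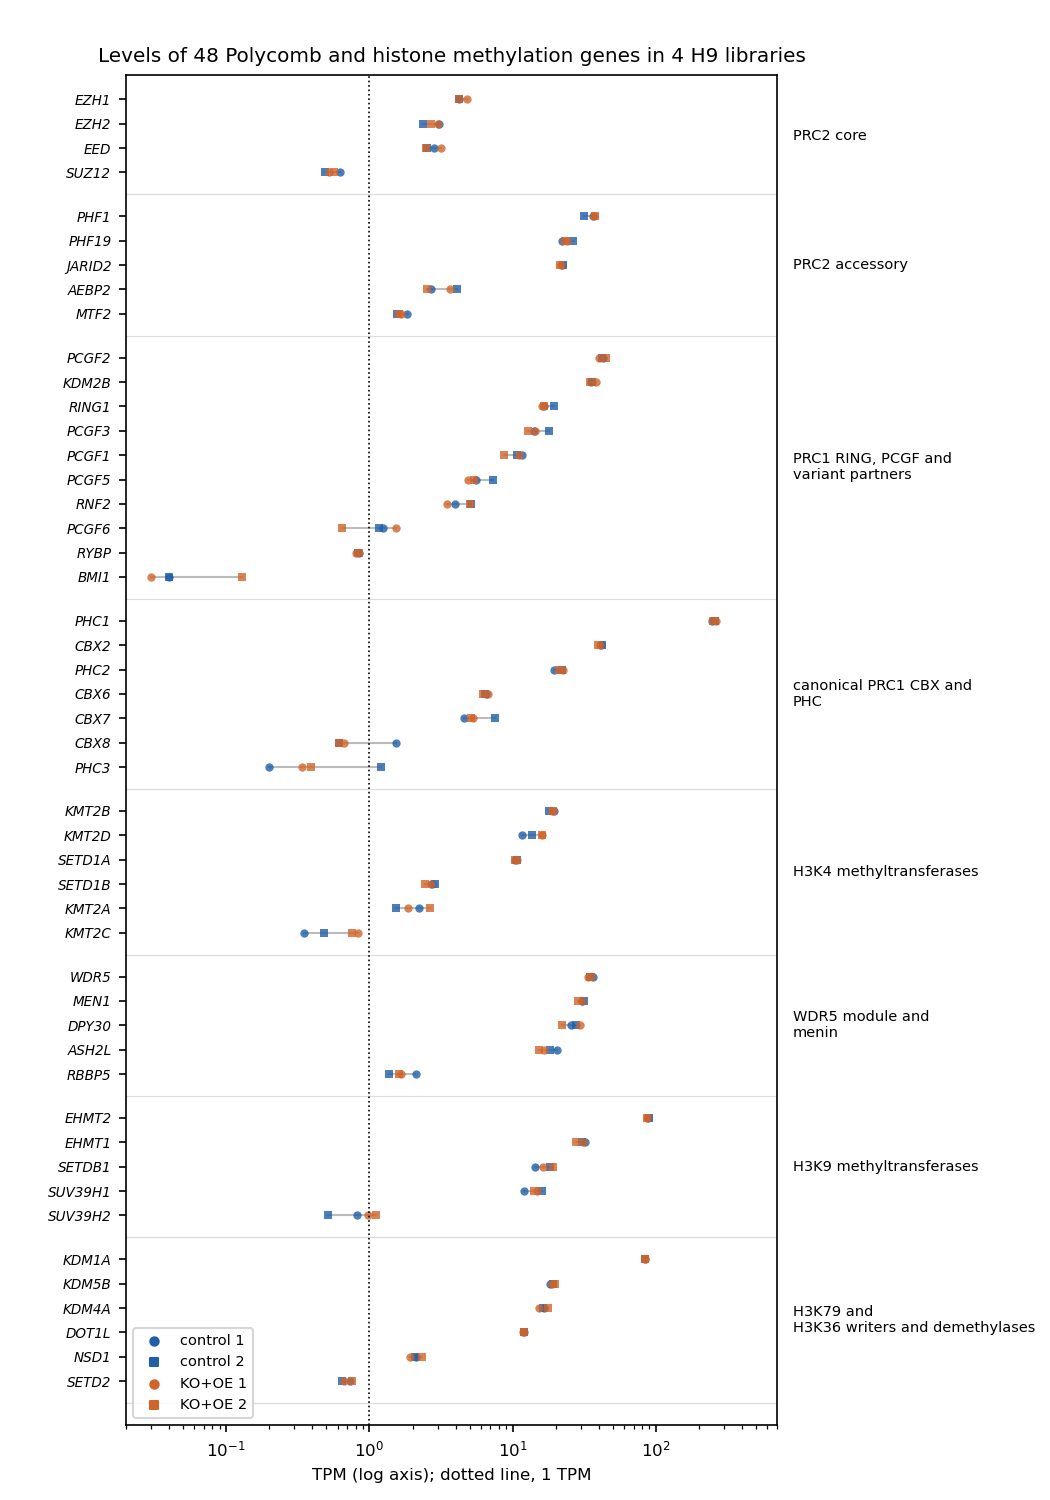
Level of each of the 48 genes (TPM, log axis) in the 4 libraries, grouped by complex; circles and squares are replicates 1 and 2, blue is control and orange is KO+OE, and a grey line joins the lowest and highest value. Most genes keep their place across all 4 libraries, from BMI1 at 0.03 to 0.13 TPM to PHC1 at 245 to 264 TPM, and the widest lines belong to low genes such as PHC3 and BMI1.

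Promoter sequences are shown for 4 members, the highest (PHC1), the lowest (BMI1) and the PRC2 subunits EZH2 and SUZ12, to set the level of a gene beside the CpG pairs at its start. Each is a RefSeq window of 300 bases on GRCh38.p14, from 250 bases before a transcription start to 50 after it, read 5′ to 3′ on the gene's strand. Where a gene had several windows the one with most CpG pairs was taken. Capitals mark CpG pairs. The PHC1 window lies at chr12:8914259-8914558 on the plus strand, EZH2 at chr7:148884242-148884541 on the minus strand, SUZ12 at chr17:31936757-31937056 on the plus strand, and BMI1 at chr10:22321706-22322005 on the plus strand.
PHC1: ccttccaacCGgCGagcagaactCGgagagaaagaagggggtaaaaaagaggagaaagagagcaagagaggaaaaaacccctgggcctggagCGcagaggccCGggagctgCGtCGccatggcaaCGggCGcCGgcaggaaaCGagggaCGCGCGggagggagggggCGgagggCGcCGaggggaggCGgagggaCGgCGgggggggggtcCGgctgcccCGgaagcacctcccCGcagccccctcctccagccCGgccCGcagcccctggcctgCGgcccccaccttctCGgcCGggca
EZH2: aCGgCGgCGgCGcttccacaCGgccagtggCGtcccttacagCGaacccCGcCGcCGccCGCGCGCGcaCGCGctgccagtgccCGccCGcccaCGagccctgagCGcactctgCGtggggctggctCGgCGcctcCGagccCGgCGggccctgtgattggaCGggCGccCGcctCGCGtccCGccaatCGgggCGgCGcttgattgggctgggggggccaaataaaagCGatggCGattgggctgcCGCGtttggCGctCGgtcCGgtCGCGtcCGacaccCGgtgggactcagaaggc
SUZ12: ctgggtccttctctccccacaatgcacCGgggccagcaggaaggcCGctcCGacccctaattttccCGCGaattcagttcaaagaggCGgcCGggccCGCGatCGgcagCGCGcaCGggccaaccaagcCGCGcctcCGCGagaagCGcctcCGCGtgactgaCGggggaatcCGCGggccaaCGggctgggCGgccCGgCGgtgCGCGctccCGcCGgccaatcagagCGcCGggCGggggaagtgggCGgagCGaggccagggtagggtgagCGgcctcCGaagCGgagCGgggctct
BMI1: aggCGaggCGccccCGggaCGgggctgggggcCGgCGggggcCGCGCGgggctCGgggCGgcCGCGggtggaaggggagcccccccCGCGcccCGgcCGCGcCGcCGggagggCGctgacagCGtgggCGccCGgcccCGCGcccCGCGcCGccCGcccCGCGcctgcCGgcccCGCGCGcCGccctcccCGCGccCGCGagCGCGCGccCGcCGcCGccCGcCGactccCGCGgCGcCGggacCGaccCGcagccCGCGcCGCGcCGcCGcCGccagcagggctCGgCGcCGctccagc

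These windows hold 28 CpG pairs in PHC1, 46 in EZH2, 40 in SUZ12 and 65 in BMI1. The member with the lowest listed level thus has the most CpG-dense start of the 4. That level is uncertain, because BMI1 shares exons with a readthrough gene described below. Windows were found for 42 of the 48 members, and their median was 36 CpG pairs against 16 for all 27305 genes in the promoter table. Those 27305 genes were not limited to genes expressed here, so these medians do not set the members beside other expressed genes. The 7 of them with a mean under 1 TPM had a median of 40 CpG pairs, and the 12 at 20 TPM or more had a median of 38. Across the 42 members the rank correlation between CpG pairs and mean level was -0.04, a description over genes that share the same 4 libraries.

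Short motifs were counted on both strands of all 64 windows of the 42 members, where windows of 1 gene can overlap, and in all 35116 windows of the table. The 35116 windows were not limited to genes expressed here. The palindromic motif of the NRF1 type was in 10 member windows (15.6%) against 5.78% of all windows, and EZH1, EZH2 and EED each had it. The GC box CCGCCC was in 76.6% of member windows against 45.0% of all. TATAAA was in 4.69% against 11.5%, with PHC1, PHC3 and JARID2 as its holders. CCAAT was in 20 member windows (31.2%) against 34.6%. The E2F-type letters TTTCCCGC were found in MTF2, PHF19 and SUZ12 (4.69% of member windows against 1.63% of all), and TTTGGCGC in EZH2 alone (1.56% against 0.652%). The NRF1-type motif and the GC box hold CpG pairs or only G and C, so their shares go with base composition, and a match here describes letters only.

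The 4 genes of the PRC2 core lie on GRCh38.p14 at chr17:42700275-42745040 (EZH1), chr7:148807383-148884291 (EZH2), chr11:86244753-86287615 (EED) and chr17:31937007-32001038 (SUZ12). In this core, the catalytic subunit was present in both of its forms at similar low levels. EZH1 was listed at 4.24, 4.24, 4.83 and 4.19 TPM. EZH2, the form usually linked to dividing cells, was listed at 3.08, 2.38, 2.99 and 2.69 TPM. EZH1 thus stood 1.38 to 1.78 times above EZH2 in each of the 4 libraries. EED, which binds the methylated histone tail and stimulates the enzyme, was listed at 2.82, 2.52, 3.17 and 2.48 TPM. The ranges of EZH2 and EED overlapped. SUZ12, the scaffold of the complex, was the lowest of the core at 0.62, 0.49, 0.52 and 0.57 TPM. Summed over the 4 core genes, the level was 9.63 to 11.5 TPM per library, of which EZH1 gave 41.8%.

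SUZ12 has a partial copy, SUZ12P1, which stood above its parent gene in this table at 6.12, 4.65, 4.67 and 5.57 TPM. PHC1 also has a named copy, PHC1P1, listed at 33.0, 33.8, 29.2 and 29.0 TPM. These copies were looked up after the values of SUZ12 and PHC1 had been seen. Of 8 pseudogenes named after 6 members, 5 were listed at 0 in all 4 libraries, and RNF2P1 reached at most 0.31 TPM. How reads that match both a gene and its copy were assigned is not given in the sources used here, so the levels of SUZ12, PHC1 and their copies are uncertain. KMT2C also has near-identical copies elsewhere in the genome, and its level carries the same doubt.

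The accessory subunits of PRC2 guide the complex to CpG islands and set its activity. PHF1, PHF19 and JARID2 lay well above the core, while MTF2 and AEBP2 lay within its range. PHF1 was listed at 36.5, 31.5, 36.95 and 37.7 TPM, and PHF19 at 22.3, 26.3, 23.8 and 23.1 TPM. MTF2, the other member of that Polycomb-like family, was at 1.83, 1.56, 1.65 and 1.62 TPM. PHF1 was therefore 19.9 to 23.3 times as high as MTF2 in the 4 libraries, and PHF19 was 12.2 to 16.9 times as high. JARID2, a subunit of the second PRC2 variant, varied little, at 22.03, 22.3, 21.8 and 21.4 TPM. AEBP2, found with JARID2 in that variant, was at 2.69, 4.07, 3.64 and 2.51 TPM, with overlapping groups.

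Among the RING and PCGF proteins that form the catalytic heart of PRC1, RING1 exceeded RNF2. RING1 was listed at 16.5, 19.3, 16.01 and 16.6 TPM, and RNF2 (RING1B) at 3.96, 5.09, 3.50 and 5.04 TPM, a ratio of 3.30 to 4.57. The PCGF subunits, which decide the type of PRC1, differed far more. PCGF2 (MEL18), the subunit of canonical PRC1, was listed at 42.97, 41.8, 39.99 and 44.7 TPM. BMI1 (PCGF4), its close relative, was listed at 0.04, 0.04, 0.03 and 0.13 TPM. The highest of these BMI1 values came from 1 KO+OE library, and the ratio of PCGF2 to BMI1 ran from 344 to 1333. A readthrough gene that contains BMI1, COMMD3-BMI1, was listed at 0.27, 0.50, 0.49 and 1.01 TPM, above BMI1 in every library, and 22.8% of the exonic bases of BMI1 lie in exons of that gene.

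The PCGF subunits of variant PRC1 lay between these extremes. PCGF3 was listed at 14, 17.9, 14.4 and 12.8 TPM, and PCGF1, which pairs with KDM2B, at 11.6, 10.7, 11.1 and 8.70 TPM. PCGF5 was at 5.56, 7.32, 4.89 and 5.39 TPM. Both KO+OE libraries lay below both controls for PCGF5, while PCGF3 and PCGF1 overlapped between groups. PCGF6, the subunit of a variant known from germ cell gene silencing, was at 1.25, 1.16, 1.53 and 0.64 TPM, with its highest and lowest values both in KO+OE. KDM2B, which brings variant PRC1 to unmethylated CpG islands, was one of the highest members at 34.8 to 38.1 TPM. RYBP, a core partner of variant PRC1, was at 0.81 to 0.85 TPM.

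PHC1 dominated the canonical PRC1 group of CBX and PHC genes, giving 77.0% of its summed level. This polyhomeotic subunit, which joins PRC1 complexes to one another, was listed at 245, 259, 264 and 249 TPM, higher than 96.5% of the genes tested. PHC2 was listed at 19.4, 22.1, 22.6 and 21.0 TPM, and PHC3 at 0.20, 1.21, 0.34 and 0.39 TPM. The order PHC1, PHC2, PHC3 held in all 4 libraries, and PHC1 was 11.7 to 12.6 times as high as PHC2. PHC3 showed the largest gap between control replicates of any member on the log2(TPM + 1) scale.

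The CBX proteins read H3K27 methylation and tether PRC1 to PRC2 targets. CBX2 led them at 41.6, 42.2, 40.9 and 39.4 TPM. CBX6 was steady at 6.52, 6.46, 6.73 and 6.19 TPM. CBX7, the CBX subunit best known from pluripotent cells, was listed at 4.6, 7.5, 5.29 and 5.08 TPM, so that CBX2 exceeded it 5.63 to 9.04 times. CBX8 was at 1.53, 0.61, 0.66 and 0.61 TPM, with control 1 apart from the other libraries.

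The H3K4 methyltransferases were led by KMT2B, listed at 19.5, 17.8, 18.7 and 19.1 TPM. Its relative KMT2A (MLL1) was at 2.22, 1.53, 1.87 and 2.66 TPM, 7.19 to 11.7 times lower. KMT2D (MLL4), which writes H3K4 monomethylation at enhancers, was at 11.6, 13.5, 16.1 and 15.98 TPM. KMT2C (MLL3), which shares that role, was at 0.35, 0.48, 0.83 and 0.76 TPM. In KMT2D and KMT2C the 2 KO+OE libraries lay above the 2 controls, an order that 14.5% of all genes tested had, and KMT2C was too low to be tested. SETD1A was at 10.4, 10.7, 10.8 and 10.3 TPM, and SETD1B at 2.74, 2.89, 2.70 and 2.45 TPM, a ratio of 3.70 to 4.21.

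The WDR5 module is shared by all of these enzymes, and menin by some of them. WDR5 was listed at 36.3, 34.6, 33.3 and 35.2 TPM and was the highest of them. MEN1, the menin scaffold of KMT2A and KMT2B complexes, was at 28.7 to 31.3 TPM, and DPY30 at 22.2 to 29.6 TPM. ASH2L was at 20.4, 18.1, 16.4 and 15.3 TPM, both KO+OE libraries below both controls. RBBP5, which forms a heterodimer with ASH2L in the same module, was at 2.10, 1.38, 1.66 and 1.62 TPM.

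Among the H3K9 enzymes, EHMT2 (G9a) gave 58.4% of the summed level. It was listed at 88.0, 90.0, 86.7 and 86.3 TPM, and its partner EHMT1 (GLP) at 32.2, 30.4, 30.8 and 27.5 TPM, 2.73 to 3.14 times lower. SETDB1, the enzyme recruited by KRAB zinc finger proteins to silence retroelements, was at 14.4, 18.3, 16.4 and 19.2 TPM. Its groups overlapped. SUV39H1, a writer of heterochromatic trimethylation, was at 11.96, 16.1, 14.8 and 14.1 TPM, and SUV39H2 was at 0.82, 0.51, 0.97 and 1.12 TPM. SUV39H1 exceeded SUV39H2 12.6 to 31.5 times.

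KDM1A (LSD1), a demethylase of H3K4, was the third highest member, at 83.5, 84.3, 83.3 and 83.7 TPM. The demethylases KDM5B, at 18.2 to 19.9 TPM, and KDM4A, at 15.2 to 17.5 TPM, followed in this group of H3K36, H3K79 and demethylase genes. KDM2B, placed with variant PRC1, was higher than both, at 34.8 to 38.1 TPM. DOT1L, the H3K79 enzyme, was at 11.8 to 12.1 TPM. The H3K36 enzymes among the members were low, with NSD1 at 1.91 to 2.33 TPM and SETD2 at 0.73, 0.64, 0.67 and 0.75 TPM. This does not hold for all such enzymes. Of the relatives of NSD1 outside the members, NSD2 was at 16.9 to 20.6 TPM and NSD3 at 2.06 to 2.49 TPM.

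In all 17 pairs of related members, the same gene was the higher one in each of the 4 libraries. The closest pair was EZH2 and EZH1, and the widest were PCGF2 and BMI1 and PHC1 and PHC3. In every pair except PHC1 and PHC2, the higher gene also had the higher percentage of G and C in its canonical transcript. That difference in G and C was small for some pairs, such as CBX2 and CBX6, and some pairs share a gene. The part of base composition in these ratios was not tested. The log2 ratio of a pair overlapped between control and KO+OE in 13 of the 17. In KO+OE it was higher for KMT2C over KMT2D and for SETD1A over SETD1B, and lower for MTF2 over PHF1 and for CBX2 over CBX6. For single genes, the groups did not overlap in 34.1% of all genes tested, a larger share than among these pairs. With 2 libraries a group, the smallest two-sided p of an exact permutation test is 0.333, so no single ratio could pass a threshold of 0.05.

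**Figure D2:**
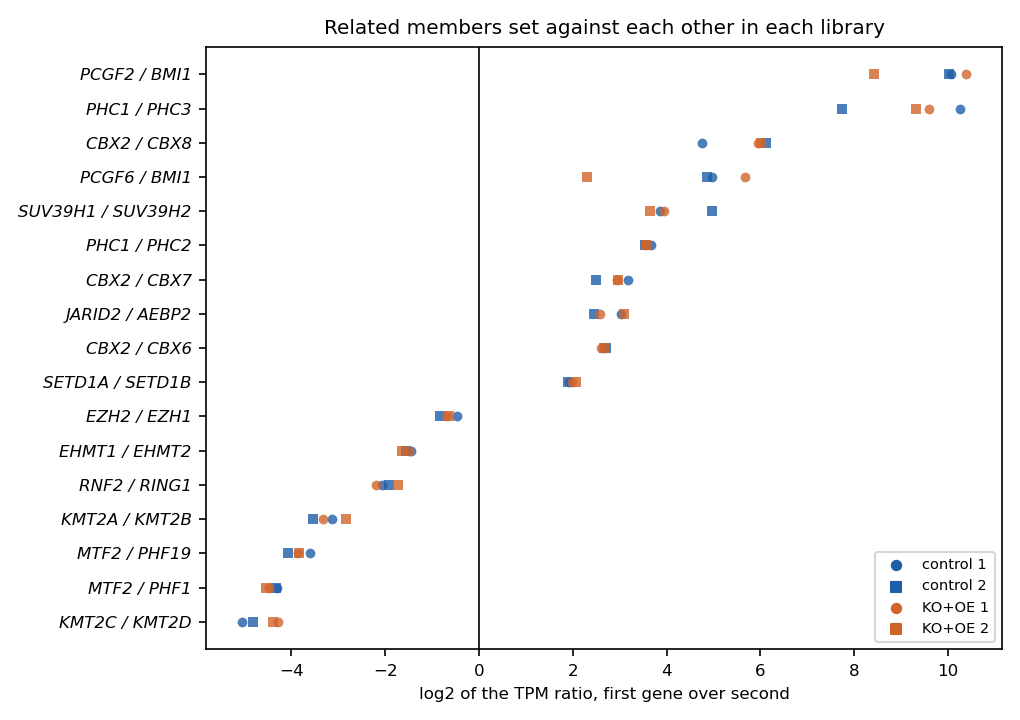
Log2 of the TPM ratio of 17 pairs of related members (x axis) in each of the 4 libraries; blue is control, orange is KO+OE, circles and squares are replicates 1 and 2, and the vertical line marks equal levels. No pair crosses the line, and the pair nearest to it is EZH2 over EZH1, at -0.83 to -0.46. Except for PHC1 and PHC2, the higher gene of each pair also has the transcript richer in G and C.

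The level of the members went with the base composition of their transcripts. Over the 48 members the rank correlation between level and the percentage of G and C in the canonical transcript was 0.549 to 0.568 in the 4 libraries. The members were also ordered by G and C and put in 3 equal groups of 16. The lowest group, at 34.3% to 44.9% G and C, had a median level of 1.68 TPM and held 6 of the 8 members under 1 TPM. The middle group, at 45.0% to 56.6%, had a median of 17.3 TPM, and the highest, at 57.0% to 63.5%, a median of 15.7 TPM, each with 1 member under 1 TPM. EED, EZH2, MTF2, RNF2 and RBBP5 belong to the lowest group, but so do DPY30 (mean 26.2 TPM) and KDM5B (mean 19.01 TPM). PHC1, EHMT2 and KDM1A belong to the other groups.

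The same correlation was 0.459 to 0.495 over 67 other genes of Polycomb and histone methylation complexes, and 0.300 to 0.312 over the 10781 protein-coding genes tested. The members and the 67 genes include some under 1 TPM, while the protein-coding genes tested all averaged 1 TPM or more. The sets are therefore not alike, and their correlations cannot be compared directly. With transcript length it was -0.263 to -0.209 over the members. These are descriptions across genes, which are not independent replicates and share the same libraries. The part of base composition in the levels was not tested.

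**Figure D3:**
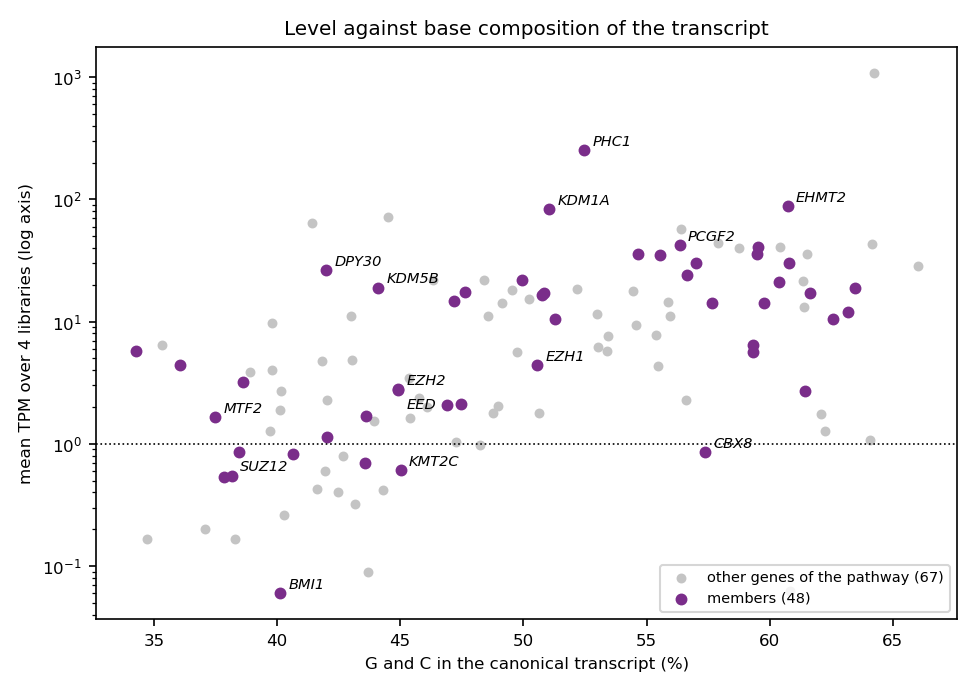
Mean TPM over the 4 libraries (log axis) against the percentage of G and C in the canonical transcript, for the 48 members (purple) and 67 other genes of the pathway (grey); the dotted line marks 1 TPM. Members under 1 TPM lie mostly at the left, and CBX8 is the 1 such member among the 16 richest in G and C.

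Some members share exons with other genes, on either strand. The share of exonic bases was 61.5% for PCGF2 (mainly CISD3), 50.8% for DPY30 (MEMO1), 48.8% for KDM4A and 18.01% for PHC1 (M6PR). It was also 23.2% for PCGF3, 22.8% for BMI1 (COMMD3-BMI1), 21.6% for CBX7, 21.2% for SUV39H1 and 19.3% for KMT2A. Whether counting used strand, and how shared bases were treated, are not given in the sources used here, so these levels are uncertain. No such sharing was found for EZH1, EZH2, EED, SUZ12, JARID2, CBX2, MEN1 or KDM1A.

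The comparison of KO+OE with control asks whether cells with the edited gene and the transgene differ from control cells in these regulators. No member passed the test. At an adjusted p under 0.05 limma called 0 of the 40 members tested, where it called 0.00812% of all genes tested (1 of 12319). At an unadjusted p under 0.05 there were 2 of the 40 members, where 5.33% of all genes tested were below that p. KMT2D was higher in KO+OE (2.26% of all genes tested in this direction) and ASH2L lower (3.06%). The lowest adjusted p of any member was 0.928. The median log2 fold change of TPM + 1, KO+OE minus control, was -0.02 over the members and -0.01 over all genes tested. The estimate was above 0 for 14 members and below 0 for 26 (65%), where 54.5% of all genes tested were below 0. With median ratios, quantile normalization or totals without mitochondrial genes the members split 20 to 20.

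The member differences were small on the log2(TPM + 1) scale. They ran from -0.27 (PCGF5) to 0.33 (KMT2D), with a median size of 0.056 against 0.082 for all genes tested. The 95% interval stayed within a 2-fold difference of TPM + 1 in either direction for 40 of 40 members tested, and for 92.6% of all genes tested. Fitted without the level filter, the intervals of CBX8 (-1.07 to 0.46) and PHC3 (-1.19 to 0.68) went beyond 2-fold. Those of the other untested members did not. Among the members tested, the distance from the interval's end to the estimate was 0.10 for KDM1A, the narrowest, and 0.68 for PCGF6, the widest. This scale understates differences of low genes, so it gives no 2-fold bound on their TPM. For PCGF6 the estimate was -0.11 as reported and -0.25 with a pseudocount of 0.1. The groups did not overlap for 8 of the 40 members (20%), against 34.1% of all genes tested. Both KO+OE libraries were above both controls for PHF1 and KMT2D (14.5% of all genes tested had this order), and below them for PCGF5, ASH2L, SETD1B, CBX2, EHMT2 and JARID2 (19.6% of all genes tested).

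**Figure D4:**
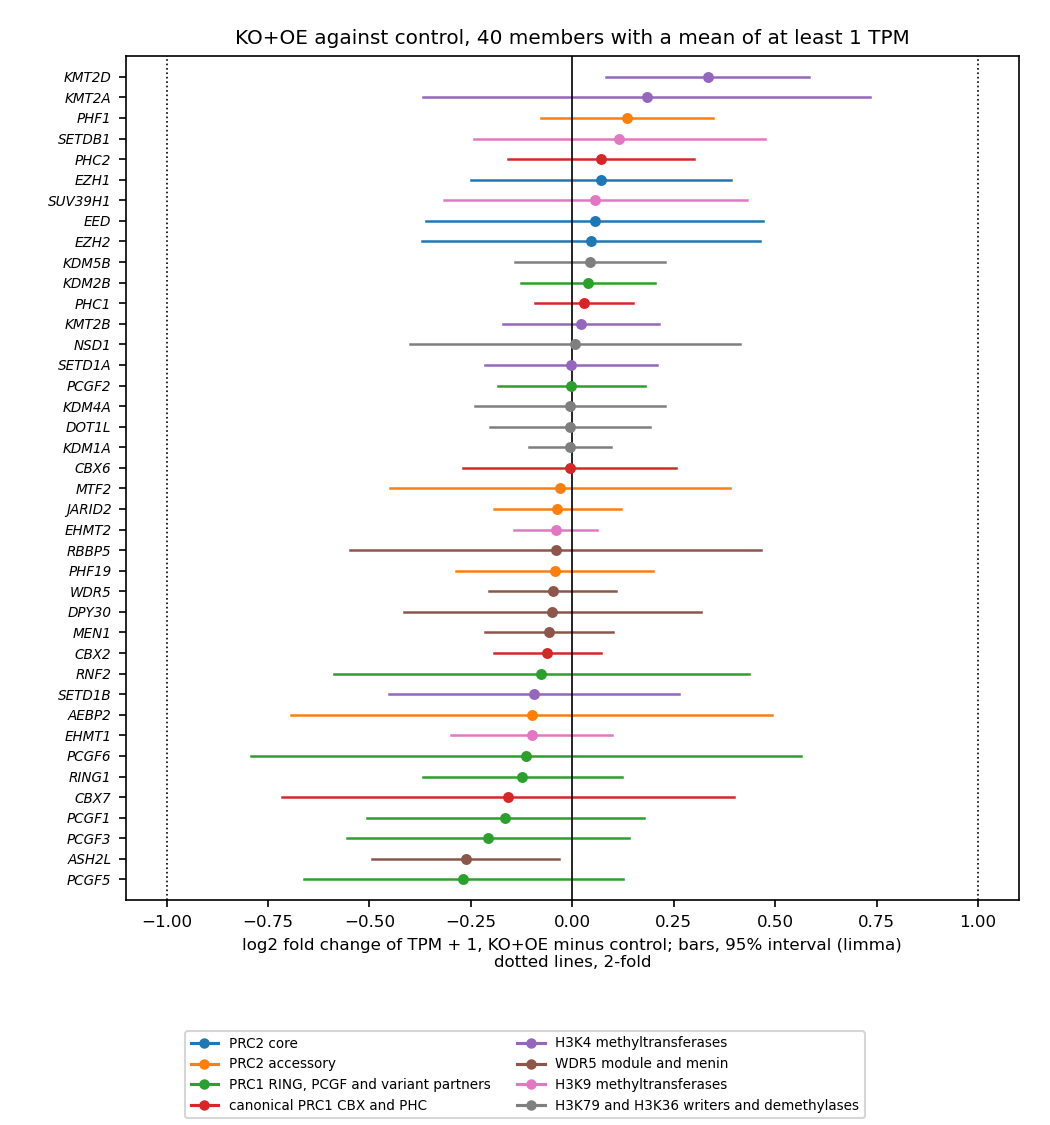
Log2 fold change of TPM + 1, KO+OE minus control, for the 40 members tested (points) with the 95% interval from limma (bars), coloured by group; the solid line marks no difference and the dotted lines 2-fold. All 40 intervals lie inside the dotted lines, which mark 2-fold on TPM + 1, not on TPM. Those of KMT2D and ASH2L are the ones that do not reach 0.

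KMT2D, at chr12:49018978-49060794 on GRCh38.p14, had the lowest unadjusted p of the members. Its control mean was 12.6 ± 1.40 TPM against a KO+OE mean of 16.04 ± 0.0778 TPM (SD, n = 2). The log2 fold change was 0.33 (SE 0.10, 95% interval 0.08 to 0.58, limma adjusted p = 0.928). ASH2L had a control mean of 19.3 ± 1.66 TPM against 15.9 ± 0.806 TPM in KO+OE (SD, n = 2). Its log2 fold change was -0.26 (SE 0.09, 95% interval -0.49 to -0.03, limma adjusted p = 0.928). Neither passed the test over all genes. Without control replicate 1 the log2 fold change of ASH2L was -0.18, and leaving out single libraries gave 0.23 to 0.44 for KMT2D.

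The next largest positive estimates belonged to KMT2A (0.18), PHF1 (0.13), SETDB1 (0.12) and PHC2 (0.07). The most negative ones after PCGF5 and ASH2L were those of PCGF3 (-0.21), PCGF1 (-0.16) and CBX7 (-0.16). The intervals of all of these included 0, and that of CBX7 ran from -0.72 to 0.40, with its 2 controls far apart. KMT2C was under the level filter. Fitted without the filter it had a log2 fold change of 0.34 (limma adjusted p = 0.873), and SUV39H2, the other untested member whose groups did not overlap, had 0.30 (adjusted p = 0.873). Both were higher in KO+OE, at levels near 1 TPM or below.

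Of all genes tested, 54.5% were below 0, and their median log2 fold change was -0.01. By complex, the median lay between -0.12 and 0.05. It was 0.05 for the 3 tested genes of the PRC2 core, all of them above 0. Without KO+OE replicate 1 all 3 were below 0, with a median of -0.014. The median was -0.04 for the 5 accessory genes, of which 4 were below 0. The group of RING, PCGF and variant PRC1 genes had the lowest median, -0.12, with 7 of 8 below 0 (6 of 8 under the other scalings, where PCGF2 was above 0) and 0 called. That median was -0.17 to -0.03 when 1 library was left out. The WDR5 module and menin had -0.05, with 5 of 5 below 0. Canonical PRC1 had -0.01, the H3K4 enzymes 0.02, the H3K9 enzymes 0.01, and the H3K36, H3K79 and demethylase group -0.00.

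Libraries of different groups were about as far apart in these genes as replicates of 1 group. The mean absolute log2 difference over the members was 0.157 between the controls and 0.140 between the KO+OE libraries. Between a control and a KO+OE library it was 0.116 to 0.160. The members with the widest gaps between control replicates were PHC3, CBX8 and CBX7, and PCGF6 had the widest gap in KO+OE.

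The other genes of these pathways were read from the same fit. Of 67 genes, 54 were tested, limma called 0 at an adjusted p under 0.05 and 2 had an unadjusted p under 0.05. That is 3.70% of the 54, below the 5.33% of all genes tested. NCOA6, a subunit of the KMT2C and KMT2D complexes, was listed at 1.40, 1.09, 2.12 and 2.55 TPM (log2 fold change 0.57, limma adjusted p = 0.928). SFMBT1, an MBT-domain relative of Polycomb proteins, was at 1.83, 1.84, 3.25 and 2.63 TPM (log2 fold change 0.47, adjusted p = 0.928). Both were higher in the 2 KO+OE libraries than in the 2 controls, and 19 of the 54 genes (35.2%) had groups that did not overlap in either direction. The estimate was above 0 for 23 and below 0 for 31 of the 54, with a median of -0.02.

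**Figure D5:**
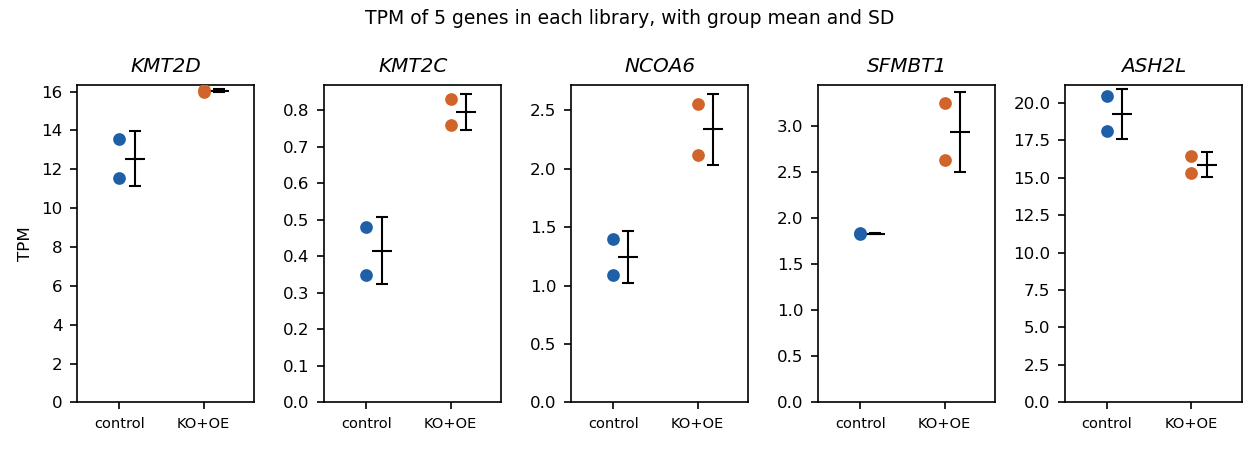
TPM in each library (points) of KMT2D, KMT2C, NCOA6, SFMBT1 and ASH2L in control (blue) and KO+OE (orange), with the group mean and SD (bars, n = 2); each panel has its own axis from 0. The genes were chosen for a low unadjusted p or, for KMT2C, for groups that do not overlap, an order seen in either direction in 34.1% of all genes tested. The adjusted p is 0.928 for KMT2D, NCOA6, SFMBT1 and ASH2L, while KMT2C was under the level filter.

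Developmental regulators known as Polycomb targets in stem cells were read alongside. Of 20 such genes, 19 averaged less than 1 TPM. The 7 with a value of 0 in each library included SOX17, HOXA9 and HOXD10. GATA6 was the exception at 5.96, 8.39, 4.35 and 7.31 TPM, with overlapping groups. Of all 60671 genes listed, 12319 averaged 1 TPM or more and 26942 were above 0 in at least 1 library. Values under 1 TPM or of 0 were thus common among all genes. The chromatin state at the 20 regulators was not measured.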

How the data were processed

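RNA-seq values for 2 control and 2 KO+OE libraries of H9 cells were used, with groups and replicate numbers from the sample titles. The authors deposited 1 table of 60671 genes. Its unit is not named, and the deposited values were read as TPM because each library sums to 986853 to 987078 and holds 2 decimals. The submitters' processing notes name HISAT2, featureCounts (Subread), DESeq2 and hg38. The annotation version, the transcript lengths and the strand setting are not given in the sources used here. Sequencing and analysis followed the provider's standard procedure, per the study. Mitochondrial genes took 21.0% to 22.1% of a library. The table has 0 further columns with values of single samples.

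Values were transformed to log2(TPM + 1), which understates differences of low genes. Genes averaging 1 TPM or more, 12319 in all, were fitted with limma 3.58.1 in R 4.3.3 (mean-dependent prior, two-sided, Benjamini-Hochberg over all genes tested, group as the only term). The test was checked on simulated data. Members, groups of genes, pairs and motifs were chosen with earlier results of these data known. Values are given in each library for the PRC2 core, the highest and lowest gene of each group, pairs of relatives, genes with an unadjusted p under 0.05 and the 5 largest differences in each direction. Of the other pathway genes, those with an unadjusted p under 0.05 were named. Gene length, G and C content and exon sharing came from GENCODE 44 (lifted to GRCh37), matched by Ensembl ID, and promoters from RefSeq GRCh38.p14. No promoter window was used for ASH2L, CBX2, CBX8, DOT1L, DPY30 and SETD1B. Alternatives were other pseudocounts, filters, scalings and priors, a replicate block and leaving out each library.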

Additional observations from a re-analysis of the deposited data

How the results depend on the processing

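No member passed an adjusted p of 0.05 under any of the 13 alternatives, and the lowest member value over all settings was 0.815. Members with an unadjusted p under 0.05 numbered 2, or 1 without the mean-dependent prior, and 0 to 4 when 1 library was left out (4 without control replicate 1, 0 without either KO+OE replicate), where the lone sample of a group is assumed to vary like the other group. The p of KMT2D ran from 0.0114 to 0.0866 and was under 0.05 in 11 of 14 settings, and that of ASH2L from 0.0237 to 0.154, in 10 of 14. The 1 gene called over all genes became 0 with a pseudocount of 0.1 or 5, no filter, a minimum of 5 TPM, quantile normalization or the replicate block, and 0 to 9 without 1 library (9 without control replicate 2). The cause was not tested. Genes with an unadjusted p under 0.05 numbered 1314 without the filter and 412 at a minimum of 5 TPM, where more or fewer genes are tested, and 552 to 645 without 1 library. Replicate numbers did not pair the libraries (correlation of deviations -0.049), and with the replicate block 0 members were called, with p = 0.0239 for KMT2D and p = 0.0237 for ASH2L. The median of the H3K4 enzymes was 0.10 with no filter, which adds KMT2C, and the PRC2 core had no member left at a minimum of 5 TPM. Near 0, direction depended on scaling. CBX6, DOT1L, KDM1A, KDM4A, PCGF2 and SETD1A, below 0 as reported, were 0.0047, 0.0061, 0.0067, 0.0077, 0.011 and 0.010 with median ratios, 0.0099, 0.0081, 0.013, 0.0060, 0.018 and 0.014 with quantile normalization, and 0.0057, 0.0071, 0.0078, 0.0087, 0.012 and 0.011 with totals without mitochondrial genes. Over all settings other than leaving out a library there were 349 values for the 40 tested members, and 331 kept their direction. The 18 that did not all came from these scalings, and some of the other settings cannot change the estimate. Without 1 library, the log2 fold change changed sign for 24 of the 40, with ranges of AEBP2 -0.33 to 0.13, CBX6 -0.059 to 0.046, CBX7 -0.46 to 0.14, DOT1L -0.022 to 0.0094, DPY30 -0.25 to 0.15, EED -0.075 to 0.19, EZH1 -0.014 to 0.15, EZH2 -0.089 to 0.18, KDM1A -0.014 to 0.00076, KDM2B -0.023 to 0.10, KDM4A -0.10 to 0.092, KMT2B -0.040 to 0.081, MTF2 -0.10 to 0.042, NSD1 -0.091 to 0.10, PCGF2 -0.081 to 0.076, PCGF6 -0.43 to 0.20, PHC1 -0.012 to 0.070, PHC2 -0.019 to 0.16, PHF19 -0.16 to 0.072, RBBP5 -0.23 to 0.15, RNF2 -0.29 to 0.14, SETD1A -0.029 to 0.025, SETDB1 -0.047 to 0.28 and SUV39H1 -0.14 to 0.26. In the same way the member median was -0.034 to -0.010, and complex medians were -0.014 to 0.15 for the PRC2 core, -0.047 to 0.033 for the PRC2 accessory genes, -0.17 to -0.032 for the RING, PCGF and variant PRC1 genes, -0.059 to 0.069 for canonical PRC1, 0.0080 to 0.081 for the H3K4 enzymes, -0.10 to -0.030 for the WDR5 module, -0.058 to 0.12 for the H3K9 enzymes and -0.022 to 0.082 for the H3K36, H3K79 and demethylase group. Unknown depth limits the genes under 1 TPM most.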

Other observations

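Among the genes near the members, LCOR, a PRC2-associated gene with several transcripts, was listed at 0.29 TPM in control 1, 43.4 TPM in control 2, and 0.25 and 0.27 TPM in the KO+OE libraries. This value of 1 library was noticed after the values were seen, and no explanation was tested. RBBP4 and RBBP7, histone-binding proteins that PRC2 shares with other complexes, stood far above the PRC2 core, at 57.0 to 67.5 TPM and 69.0 to 75.7 TPM. TRIM28, the corepressor that brings SETDB1 to KRAB zinc finger proteins, was listed at 1057 to 1127 TPM, above every member. KDM5C, a relative of KDM5B, was at 42.8 to 44.7 TPM, and RCOR2, a partner of KDM1A, at 41.4 to 44.9 TPM.

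SUZ12P1 and PHC1P1, the copies of SUZ12 and PHC1, were the 2 pseudogenes of members with more than 1 TPM. PHC1P1 was lower in both KO+OE libraries than in both controls, and SUZ12P1 overlapped between the groups.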
